A study of Mus musculus with 130 samples.

Results

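Tdpoz1, Tdpoz2, Tdpoz3 and Tdpoz4 are 4 neighbouring mouse genes expressed in the 2-cell embryo, and they are 4 of the 36040 genes in the count table. They were chosen by name from an earlier view of these embryos, in which their transcripts appeared to fall with the compound SR1848 while other genes of the 2-cell stage rose. Because this contrast chose them, their levels with and without SR1848 are given as a description, without a test. Gene by gene the data matched that choice for 2 of the 4 and went against it for the others: Tdpoz1 and above all Tdpoz2 were lower with SR1848, whereas Tdpoz3 and, on all scales tried but 1, Tdpoz4 were higher. Their sum, most of which is Tdpoz1, was lower.

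Tdpoz genes encode intracellular proteins that pair a TRAF (MATH) domain, which binds partner proteins, with a POZ (BTB) domain. Spop, the best known protein of this architecture, is a substrate adaptor of the ubiquitin ligase built on cullin 3, and its POZ domain holds the cullin. The mouse genome carries many similar copies of Tdpoz side by side, known for transcription in the oocyte and early embryo.

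RNA was read from 130 single B6129F1 embryos at the 2-cell stage, 80 cultured with SR1848 and 50 with its solvent, to ask what the nuclear receptor Nr5a2 contributes to the start of embryonic transcription. The compound is sold as an inhibitor of Nr5a2, also called LRH-1. All embryos were zygotes collected 5 hours after fertilization, kept in wet chambers without an oil layer, and held from 6 hours in KSOM medium with either 10 µM SR1848 or 0.1% DMSO. Each embryo gave 1 Smart-seq2 library of polyadenylated RNA primed with oligo-dT. The labels do not tie embryos to a mother, drop or plate. The p-values thus measure only the spread between these embryos, and effects of SR1848 and of handling common to a group cannot be told apart. An embryo was read as a whole, and each level is relative to the scaled counts of its library. A gene that rose or fell thus did so relative to other transcripts. Neither the number of cells nor the RNA per cell can be read from these levels.

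The 4 genes lie on chromosome 3 of mm10 (GENCODE M21). Tdpoz2 is at chr3:93651542-93652686 and Tdpoz1 at chr3:93669333-93676310, both on the minus strand. Tdpoz4 is at chr3:93796398-93797510 and Tdpoz3 at chr3:93826020-93827117, both on the plus strand. Genes named Tdpoz or Spopfm (the Spop-like family next to them) surround them between 93068823 and 94266784. The coding sequences are 1098, 1083, 1098 and 1113 bases long for Tdpoz1 to Tdpoz4. Tdpoz1 and Tdpoz3 are the closest pair, identical at 88.1% of aligned coding bases, and Tdpoz3 and Tdpoz4 are the most distant at 76.5%. Tdpoz2 was 82.8% identical to Tdpoz1, 83.3% to Tdpoz3 and 78.4% to Tdpoz4.

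The window below shows how reads of the 4 transcripts can be told apart. It covers coding bases 304 to 393 of each gene, counted from the A of the start codon and written 5′ to 3′. Of its 90 bases, 54 differ in at least 1 of the 4 genes, and a capital marks a base that differs from those of the other three genes.
Tdpoz1: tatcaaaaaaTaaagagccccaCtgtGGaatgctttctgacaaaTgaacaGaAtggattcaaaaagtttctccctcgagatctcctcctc
Tdpoz2: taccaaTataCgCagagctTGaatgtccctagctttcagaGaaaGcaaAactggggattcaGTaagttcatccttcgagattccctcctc
Tdpoz3: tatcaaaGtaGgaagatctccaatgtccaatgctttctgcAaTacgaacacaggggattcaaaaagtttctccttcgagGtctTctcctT
Tdpoz4: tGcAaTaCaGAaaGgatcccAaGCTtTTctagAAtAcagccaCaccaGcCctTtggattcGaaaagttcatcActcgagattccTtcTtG
The letters show 7 bases of this window particular to Tdpoz1, 10 to Tdpoz2, 7 to Tdpoz3 and 25 to Tdpoz4, so a read over it separates the 4 genes from each other. Their nearest copies are harder to separate. Over the whole transcripts, 41.6% of the 31-base windows of Tdpoz1 occur in no other annotated gene, against 33.7% for Tdpoz2, 24.3% for Tdpoz3 and 35.4% for Tdpoz4. Reads from the shared windows were divided among copies by the authors' quantification, so each level below depends in part on that division. Tdpoz9 and Tdpoz9-ps1 are 98.5% identical to Tdpoz1, Gm5773 is 97.9% and Gm9141 98.2% identical to Tdpoz2, Gm4982 is 99% identical to Tdpoz3, and Gm5541 is 97.3% identical to Tdpoz4.

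Total counts ran from 3145200 to 8371564 per DMSO embryo (median 5431064) and from 2704544 to 7771635 per SR1848 embryo (median 4613965). Across all genes the SR1848 contrast was broad: of 13192 genes tested, 82.1% passed an adjusted p of 0.05 in edgeR's quasi-likelihood test with Benjamini-Hochberg adjustment, 45.6% higher and 36.5% lower, and the median log2 fold change was 0.24. Nr5a2 itself stood at 99.3 ± 27.7 CPM (counts per 1000000 counts of a TMM-scaled library; SD, n = 50) with DMSO and 10.5 ± 7.66 (n = 80) with SR1848, where all 80 embryos were below the DMSO median. Markers of the labelled stage were present in every embryo but not at equal levels: the summed level of 15 2-cell genes had a median of 353 CPM (117 to 1154) with DMSO and 2231 (304 to 6218) with SR1848. The summed level of 41 measured oocyte transcripts of 44 had a median of 17851 CPM (12552 to 27999) with DMSO and 35675 (15616 to 75340) with SR1848, and libraries were also scaled to it as an alternative. Zbed3, which stood at 2890 ± 1725 and 12865 ± 7509 CPM, and Spin1, at 4631 ± 1649 and 11668 ± 6298 CPM, supplied 86.6% of the difference in the mean of that sum. The same scaling without these 2 genes was therefore added after seeing the data. Ccnb1, of the same list, stood lower with SR1848 (1671 ± 336 and 613 ± 227 CPM), as did Dppa3 (2785 ± 748 and 1264 ± 623 CPM). The sum thus does not stand for each of its members. Markers of other cells were low apart from haemoglobin. The summed level of 11 cumulus markers had a median of 3.41 CPM (0 to 20.7) with DMSO and 6.45 (0.375 to 258) with SR1848, and that of 8 measured sperm markers of 9 had medians of 1.21 (0 to 4.98) and 2.57 (0.259 to 14.5). The highest cumulus value came from Inha in 1 SR1848 embryo, and Inha was at 0 in every DMSO embryo. The 6 measured blood markers of 7 summed to a median of 34.7 CPM (6.21 to 133) with DMSO and 210 (59.6 to 673) with SR1848, carried by Hba-a1 and Hba-a2, while Hbb-bs was at 0 in every DMSO embryo. The part of these markers in the values below was not tested.

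Tdpoz1 was the most abundant of the 4 genes. Its level ran from 18.6 to 238 CPM in DMSO embryos, with a median of 76.4, and from 0 to 183 CPM in SR1848 embryos, with a median of 31.9. The groups overlapped, with 65 of 80 SR1848 embryos below the DMSO median and 29 of them below every DMSO embryo. Mean levels were 91.4 ± 55.6 CPM (SD, n = 50) and 47 ± 43.7 (n = 80), a fitted log2 fold change of -0.96 (SE 0.226), or 1.94-fold lower. This gene has a pair of annotated transcripts that overlap and differ in exon number, so the division of reads between them is an estimate. The 2-exon form held most of the counts, with means of 84.8 ± 56.6 CPM in DMSO and 40.9 ± 41.7 CPM in SR1848 embryos. For the form with 1 exon the means were 6.63 ± 12.5 and 6.14 ± 10.1 CPM, and 28 of 50 DMSO and 50 of 80 SR1848 embryos had none. The lower level of Tdpoz1 was thus assigned to the spliced form.

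Tdpoz2 showed the deepest difference of the 4. DMSO embryos held between 1.81 and 47.6 CPM, with a median of 11.6, and none lacked it. SR1848 embryos held between 0 and 4.05 CPM, with a median of 0, and 61 of 80 had no count after rounding. The groups barely overlapped: all 80 SR1848 embryos were below the DMSO median and 78 were below every DMSO embryo. Summed over embryos, Tdpoz2 received 3668 estimated counts with DMSO and 76.5 with SR1848. A limit of 3 counts in an SR1848 embryo corresponds to at most 1.27 CPM, which is under the lowest DMSO value of 1.81. Mean levels were 12.7 ± 8.30 and 0.218 ± 0.621 CPM, and the fitted log2 fold change was -5.72 (SE 0.34), or 52.6-fold lower.

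Tdpoz3 went the other way. It ran from 0 to 21.4 CPM in DMSO embryos (median 5.43) and from 0 to 81.1 CPM in SR1848 embryos (median 11.9). The groups overlapped at the low end, where 2 DMSO and 5 SR1848 embryos were at 0, and separated at the high end, where 23 SR1848 embryos exceeded every DMSO embryo. In all, 53 of 80 SR1848 embryos were above the DMSO median. Mean levels were 7.09 ± 6.22 and 17.3 ± 18.7 CPM, a log2 fold change of 1.28 (SE 0.326), or 2.43-fold higher.

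Tdpoz4 differed least. It ran from 1.77 to 45 CPM with DMSO (median 9.65) and from 0 to 69.8 CPM with SR1848 (median 13.4), so that the groups overlapped over most of their range. Only 50 of 80 SR1848 embryos were above the DMSO median, 4 were above every DMSO embryo and 4 were below every one. Mean levels were 11.4 ± 8.02 and 17.1 ± 14 CPM, a log2 fold change of 0.59 (SE 0.221). This direction depended on the scale: with libraries scaled to the summed oocyte transcripts, which moves the all-gene median to -0.74, Tdpoz4 stood at -0.42. Tdpoz3 stayed higher on that scale, at 0.56, and Tdpoz1 and Tdpoz2 stayed lower, at -1.72 and -6.76. With Zbed3 and Spin1 left out of the oocyte sum, Tdpoz4 stood at 0.32 and the all-gene median at 0.03. No gene named here as turning on the oocyte-transcript scale turned once these 2 were left out.

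**Figure D1:**
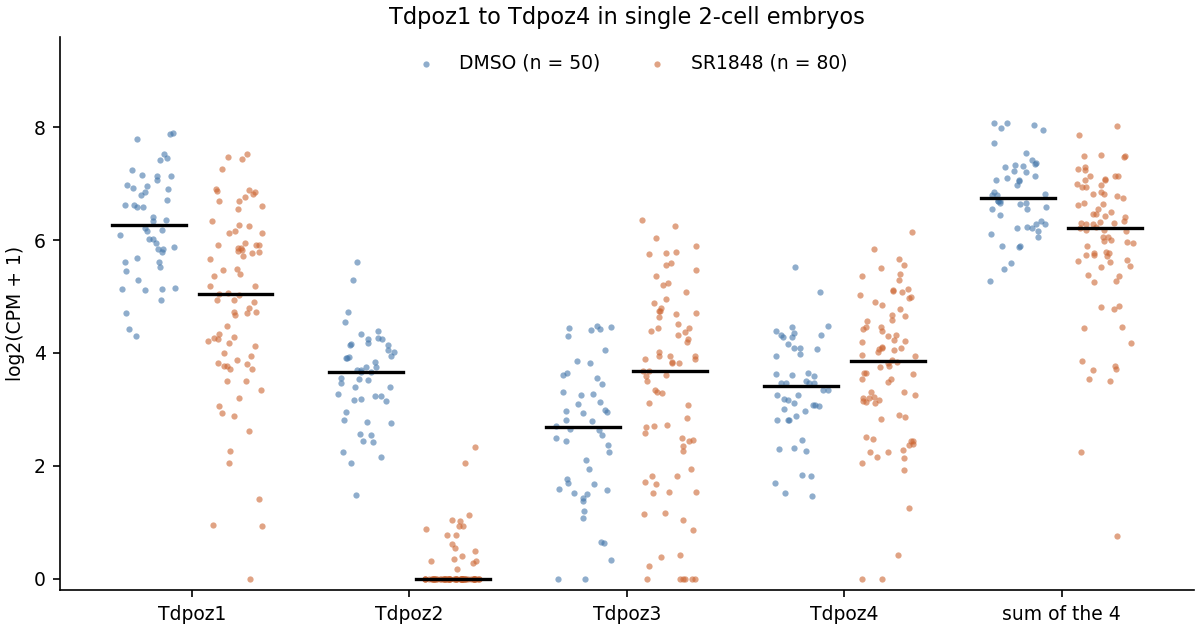
Level of each Tdpoz gene and of their sum in every embryo, as log2(CPM + 1) on the vertical axis, with 50 DMSO embryos in blue and 80 SR1848 embryos in orange; black lines are medians. Tdpoz2 is the gene whose groups scarcely overlap (78 SR1848 embryos below every DMSO embryo), while the SR1848 medians of Tdpoz3 and Tdpoz4 lie above those of DMSO.

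The authors' deposited table, fitted per transcript, gave the same directions. It lists a log2 fold change of -6.32 for Tdpoz2 (adjusted p 3e-85, by the authors' DESeq2), of 1.01 for Tdpoz3 (adjusted p 0.0024) and of 0.24 for Tdpoz4 (adjusted p 0.37). For Tdpoz1 the authors' deposited table, also by DESeq2, gives -1.34 for the 2-exon form (adjusted p 8.9e-06) and -0.38 for the 1-exon form (adjusted p 0.74). These come from the same embryos that chose the genes, so the adjusted p-values are quoted as deposited and are no separate test.

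The sum of the 4 genes ran from 37.9 to 268 CPM in DMSO embryos (median 106) and from 0.696 to 259 in SR1848 embryos (median 73.3). The ranges overlapped, but 57 of 80 SR1848 embryos were below the DMSO median and 16 were below every DMSO embryo. Means were 123 ± 60.1 and 81.7 ± 52.8 CPM, a log2 fold change of -0.58 (SE 0.17). Behind this modest difference the make-up of the sum was rearranged. Tdpoz1 supplied 74% of the pooled counts of the 4 genes with DMSO and 57.7% with SR1848, and Tdpoz2 supplied 10.6% and 0.265%. Tdpoz3 supplied 6.23% and 20.9%, and Tdpoz4 supplied 9.2% and 21.2%. Per embryo the share of Tdpoz1 averaged 70.9 ± 14.8% with DMSO and 52 ± 26.7% with SR1848, where it ran from 0 to 100%. These extremes came from 3 SR1848 embryos with little Tdpoz in all: the sum was 0.696 CPM in the embryo at 0%, and 10.3 and 12.2 CPM in those at 100%. These are shares of counts, not corrected for the longer transcripts of Tdpoz1 (2237 and 2322 bases, against 1098 to 1145 for the other three).

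**Figure D2:**
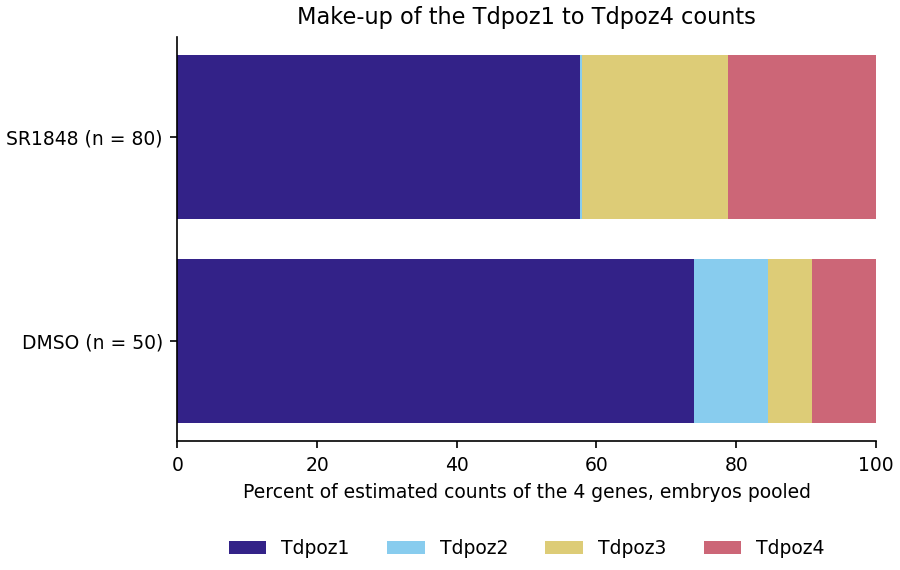
Share of each gene in the estimated counts of Tdpoz1 to Tdpoz4, in percent on the horizontal axis, with the embryos of a group pooled into 1 bar. Tdpoz2 is 10.6% of the DMSO bar and 0.265% of the SR1848 bar, and Tdpoz3 and Tdpoz4 widen to 20.9% and 21.2%.

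Levels per length of annotated transcript (CPM per kilobase) allow the genes to be ordered, as an estimate. The annotated transcripts of Tdpoz3 and Tdpoz4 hold coding sequence only, whereas those of Tdpoz1 and Tdpoz2 extend beyond it. The division of reads among copies also enters the order. In DMSO embryos the order was Tdpoz1 (39.5 ± 24), Tdpoz2 (11.1 ± 7.25), Tdpoz4 (10.3 ± 7.21) and Tdpoz3 (6.46 ± 5.66). Tdpoz1 was above Tdpoz2 in 49 of 50 embryos and Tdpoz4 above Tdpoz3 in 34 of 50. Tdpoz2 and Tdpoz4 did not differ beyond their spread, as each was the higher in 25 of 50 embryos and the mean difference was 0.807 ± 6.95 CPM per kilobase. In SR1848 embryos the order was Tdpoz1 (20.4 ± 18.9), Tdpoz3 (15.8 ± 17), Tdpoz4 (15.4 ± 12.6) and Tdpoz2 (0.19 ± 0.534). Only the last step was clear there: Tdpoz4 was above Tdpoz2 in 78 of 80 embryos. Tdpoz1 was above Tdpoz3 in 47 of 80, with a mean difference of 4.58 ± 23.5 CPM per kilobase, and Tdpoz3 was above Tdpoz4 in 31 of 80.

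Relative to the mean, the spread between embryos was wide in every gene. The coefficient of variation, the SD as a percentage of the mean, was 60.9% for Tdpoz1, 65.5% for Tdpoz2, 87.9% for Tdpoz3 and 70.2% for Tdpoz4 in DMSO embryos. With SR1848 it was 92.9%, 285%, 108% and 81.9% in the same order. The SD itself was lower with SR1848 for Tdpoz1 and Tdpoz2, whose means were lower, and the Tdpoz2 value rests on the few embryos that kept any count. Summed with its copies of at least 97% identity, Tdpoz1 varied less, by 38.8% with DMSO and 65.3% with SR1848. Such sums for Tdpoz2, Tdpoz3 and Tdpoz4 varied by 62.4%, 91.1% and 69.5% with DMSO. With SR1848 they varied by 186%, 109% and 75.9%. The part of the division of reads among copies in this spread was not tested.

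Each gene was next added to its copies of at least 97% identity, since a read moved between such copies leaves their sum alone. Tdpoz1 with Tdpoz9 and Tdpoz9-ps1 came to 317 ± 123 CPM with DMSO and 191 ± 125 with SR1848, with 65 of 80 SR1848 embryos below the DMSO median. Tdpoz2 with Gm5773 and Gm9141 came to 26.9 ± 16.8 and 0.972 ± 1.81 CPM. All 80 SR1848 embryos were below the DMSO median of that sum and 73 were below every DMSO embryo, so the groups stood apart for the summed 3 copies as well. Tdpoz3 with Gm4982 came to 7.84 ± 7.14 and 19.1 ± 20.8 CPM. Tdpoz4 with Gm5541 came to 26.7 ± 18.6 and 29.7 ± 22.6 CPM, with 41 of 80 SR1848 embryos above the DMSO median, so the sum of that pair overlapped almost fully between the groups.

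The relatives outside the 4 genes were tested. Those near in sequence share reads with the 4, so their tests are not independent of the choice of these genes. The same holds for the unnamed copies below. Tdpoz9 and Tdpoz9-ps1, whose coding sequences are identical, hold 7.33% and 2.88% of 31-base windows of their own and are counted apart here. Of 9 other genes named Tdpoz or Spopfm, all of which could be tested, 5 (4 of 8 when Tdpoz5 and Tdpoz7, which have the same sequence, count once) were lower with SR1848 and 0 higher by edgeR's quasi-likelihood test (adjusted p under 0.05), beside 36.5% and 45.6% of all genes. Their median log2 fold change was -0.52, beside 0.24 over all genes. All 9 values were below 0, so none was higher at an unadjusted p under 0.05 either, and DESeq2 also gave 0 higher. Tdpoz6 fell most, from 9.35 ± 6.48 to 2.69 ± 3.73 CPM (a log2 fold change of -1.79 with an SE of 0.315, edgeR adjusted p 1.6e-07). Tdpoz9 fell from 110 ± 50.5 to 64.4 ± 40.4 CPM (log2 fold change -0.78, edgeR adjusted p 1.6e-05), and its twin Tdpoz9-ps1 from 115 ± 70.7 to 79.9 ± 61.7 CPM (-0.52, edgeR adjusted p 0.025). Tdpoz5 and Tdpoz7 have identical transcripts and received identical values, so they count as 1 measurement. Each was given 68.7 ± 45.8 CPM with DMSO and 39.2 ± 24.8 with SR1848 (log2 fold change -0.81, edgeR adjusted p 2.1e-05). These values are an equal share of the reads of both, so the level of the pair together is higher. Tdpoz8, 94.7% identical to Tdpoz4, did not pass, with 15.3 ± 12.1 and 14.5 ± 8.50 CPM (log2 fold change -0.07, edgeR adjusted p 0.71). Neither did Spopfm1 (-0.36, edgeR adjusted p 0.12), Spopfm2 (-0.14, adjusted p 0.38) or Spopfm3 (-0.33, adjusted p 0.078), of which Spopfm1 and Spopfm3 passed as lower with RLE or total-count scaling and in DESeq2.

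A further 15 copies with predicted-gene names matched a Tdpoz coding sequence over at least 80% of its length, and 10 of them could be tested. Of these 10, 4 fell and 1 rose, beside 36.5% and 45.6% of all genes, with a median log2 fold change of -0.24. The share that fell is near the background. Gm5773, which shares 56.3% of the 31-base windows of Tdpoz2, fell from 8.98 ± 6.88 to 0.32 ± 0.829 CPM (a log2 fold change of -4.65 with an SE of 0.372, edgeR adjusted p 2.4e-23), with 80 of 80 SR1848 embryos below the DMSO median. Gm9141, the other near copy of Tdpoz2, did not pass the filter on low counts and stood at 5.25 ± 5.49 and 0.435 ± 0.749 CPM. Fitted without the filter, its log2 fold change was -3.58 (SE 0.392, edgeR adjusted p 6e-15). Gm4982, the near copy of Tdpoz3, did not pass the filter either and stood at 0.756 ± 1.13 and 1.78 ± 2.51 CPM, and without the filter its log2 fold change was 1.14 (SE 0.465, edgeR adjusted p 0.028). Gm5543 (-0.86, edgeR adjusted p 1.8e-05), Gm5852 (-1.01, adjusted p 6.5e-06) and Gm9131 (-1.04, adjusted p 7.6e-05), all between 83.4% and 84.5% identical to Tdpoz2, fell by less. Gm9121, 84.2% identical to Tdpoz2, rose from 8.90 ± 5.58 to 14.2 ± 10 CPM (log2 fold change 0.68, edgeR adjusted p 0.0024), and stood at -0.26 on the oocyte-transcript scale. The 5 copies that did not pass were Gm5541 (-0.28), Gm5542 (0.24), Gm9113 (-0.20), Gm9116 (-0.18) and Gm9124 (0.43). Their log2 fold changes lay between those of the genes that fell and Gm9121.

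**Figure D3:**
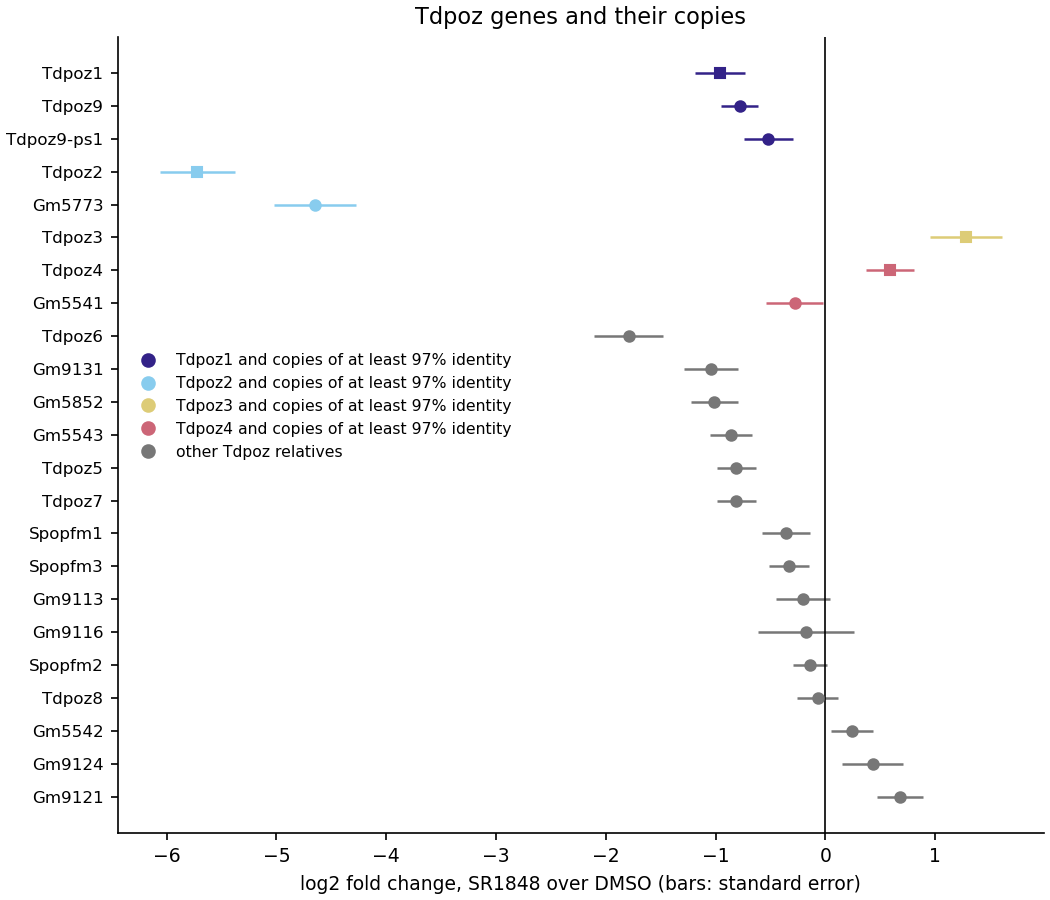
Log2 fold change, SR1848 over DMSO, on the horizontal axis for the 4 Tdpoz genes (squares, described only) and their tested relatives (circles), with bars for 1 standard error and colours for the gene to which a copy is at least 97% identical. Tdpoz2 (-5.72) and its copy Gm5773 (-4.65) lie far to the left of the rest, and Tdpoz3 (1.28) lies farthest to the right.

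Within each group the 4 genes were compared with each other across embryos, on log2(CPM + 1). Tdpoz3 and Tdpoz4 varied together in both groups. Spearman's rho was 0.37 (Pearson's r 0.41) over 50 DMSO embryos, with permutation p-values adjusted over 22 relations of 0.026 and 0.012. Over 80 SR1848 embryos rho was 0.48 (r 0.53), with adjusted permutation p-values of 0.00022 and 0.00011. Without the 2 embryos farthest from the median, r was 0.37 and 0.52. They are the pair with the most distant coding sequences, and both lie on the plus strand. Tdpoz1, whose sequence is nearest to Tdpoz3, did not vary with it to a degree that passed: rho was -0.16 with DMSO (adjusted permutation p 0.43) and 0.20 with SR1848 (adjusted permutation p 0.14). Tdpoz1 and Tdpoz4 showed rho of -0.069 and 0.015 (adjusted permutation p 0.82 and 0.93). Tdpoz2 and Tdpoz3 passed among SR1848 embryos (rho 0.29, r 0.31, adjusted permutation p 0.026 and 0.012), where most embryos have no Tdpoz2, but rho was 0.22 without the 2 farthest embryos and no longer passed. No pair besides these passed by rho in either group.

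The genes were then set against a 2-cell score, the mean log2(CPM + 1) of 15 genes that mark the 2-cell stage, among them Zscan4, Tcstv, Usp17l and Zfp352 genes and Duxf3. Tdpoz3 and Tdpoz4 followed the score by rho in both groups, though for Tdpoz4 in DMSO embryos the call was lost with a pseudocount of 0.1 (rho 0.28, adjusted permutation p 0.062). With SR1848, rho was 0.56 for Tdpoz3 (r 0.58) and 0.51 for Tdpoz4 (r 0.64), each with a permutation p adjusted over 8 relations of 4e-05 for rho and 2.7e-05 for r. With DMSO, rho was 0.32 and 0.33 (adjusted permutation p 0.032 each), while r was 0.28 and 0.27 and did not pass (adjusted permutation p 0.08 each). Tdpoz1 followed it as well, with rho of 0.46 with DMSO (r 0.45, adjusted permutation p 0.0022 and 0.002) and 0.41 with SR1848 (r 0.53, adjusted permutation p 0.00045 and 2.7e-05). For Tdpoz2 rho was 0.12 with DMSO and did not pass (adjusted permutation p 0.49). With SR1848 it was 0.034 (adjusted permutation p 0.76), but 61 of 80 embryos were at 0 there, so a relation could hardly show. These comparisons used single genes within a group and not the contrast that chose the genes. Without the 2 embryos farthest in the score, r was 0.38 and 0.47 for Tdpoz1, 0.31 and 0.54 for Tdpoz3, and 0.25 and 0.53 for Tdpoz4, with DMSO and SR1848 in turn. Whether a gene's relation differed between the groups was not tested.

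For the sum of the 4 genes, given as a description, rho with the 2-cell score was 0.58 in DMSO and 0.64 in SR1848 embryos (r 0.56 and 0.77, and 0.51 and 0.72 without the 2 farthest embryos). Depth did not move with the sum to a similar degree: rho with the total count was -0.062 (r -0.049) and -0.10 (r -0.21). The number of detected genes did so with SR1848, at rho 0.37 (r 0.38), and not with DMSO, at 0.0097 (r -0.036). The mean level of oocyte transcripts moved against the sum with SR1848, at rho -0.34 (r -0.37), and stood at 0.044 (r 0.036) with DMSO. With Nr5a2, Spearman's rho was 0.25 (r 0.27) and 0.33 (r 0.23). The part of detected genes or of oocyte transcripts in the relation with the 2-cell score was not tested.

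**Figure D4:**
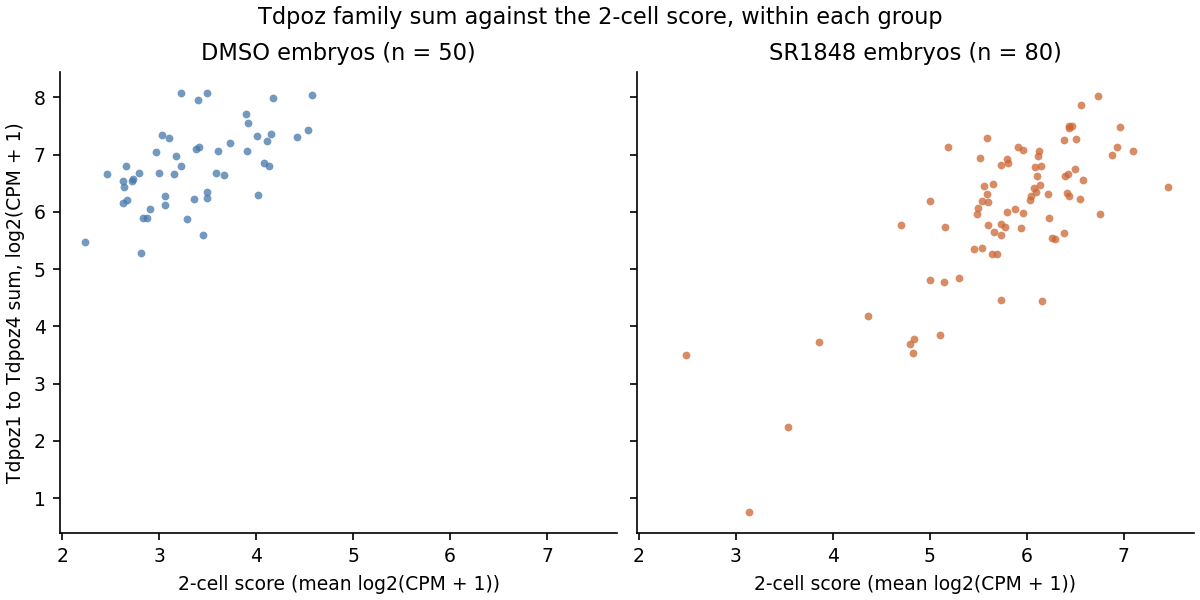
Sum of Tdpoz1 to Tdpoz4 as log2(CPM + 1) against the 2-cell score, the mean log2(CPM + 1) of 15 2-cell genes, with 1 point per embryo and 1 panel per group. Within each panel embryos with a higher score tend to carry more Tdpoz (rho 0.58 and 0.64). Most SR1848 embryos lie to the right of the DMSO embryos, many at a similar or lower Tdpoz sum. A few SR1848 embryos lie within the DMSO scores, down to a score of 2.49 at a sum of 10.3 CPM.

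Among 4951 genes with at least 20 CPM in both groups and outside the family, the median of the mean rho with the Tdpoz sum (averaged over the groups) was -0.0577, and 95% were below 0.364. The 8 genes most like the sum were all above 0.61. Pramel17, of a gene family active in oocytes and early embryos, had rho of 0.621 over 50 DMSO and 0.755 over 80 SR1848 embryos. Eif1ad3 (0.563 and 0.813) and Eif1ad7 (0.538 and 0.825), relatives of a translation initiation factor, Zfp352 (0.607 and 0.684), a zinc-finger gene that is also in the 2-cell score, and Orc3 (0.445 and 0.791), a subunit of the origin recognition complex, were among them. The others were the predicted genes Gm5157 (mean rho 0.656), Gm7102 (0.654) and Gm5117 (0.631). Of copies within the family, Gm5543 was the most like the sum, with a mean rho of 0.702. The other copies at this level followed the sum less with DMSO than with SR1848. For the near copies of Tdpoz1, rho was 0.201 and 0.814 for Tdpoz9, and -0.13 and 0.762 for Tdpoz9-ps1. It was 0.0958 and 0.72 for Tdpoz5 and Tdpoz7, 0.341 and 0.766 for Spopfm2, and 0.225 and 0.753 for Spopfm3. Eif1ad3 rose from 30 ± 31.9 to 139 ± 123 CPM (log2 fold change 2.21, edgeR adjusted p 1.9e-13), Eif1ad7 rose from 40 ± 35.2 to 236 ± 183 CPM (2.56, edgeR adjusted p 6e-18) and Zfp352 rose from 83.6 ± 53.1 to 235 ± 133 CPM (1.49, edgeR adjusted p 8e-15). Pramel17 fell from 98.2 ± 43.2 to 72.2 ± 48.9 CPM (-0.44, edgeR adjusted p 0.04, or 0.065 with the embryo number as a block), and Orc3 did not pass (0.18, edgeR adjusted p 0.2). The fit with a block kept only embryos whose number occurs in both groups.

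The other 2-cell genes were part of the reason for choosing Tdpoz, so their values in this contrast are a description as well. Of 23 that passed the filter, 19 stood higher with SR1848 and 3 lower past the threshold used for all genes (45.6% and 36.5%), and the median log2 fold change was 2.78. Gm6763 stood at 12.1 ± 16.1 CPM with DMSO and 550 ± 303 with SR1848, and the log2 fold changes of Tcstv1, Tcstv3 and Gm20767 were 3.89, 3.78 and 3.97. Tmem92, the most abundant, stood at 0.47, and at -0.45 on the oocyte-transcript scale. The 3 lower genes, named after their values were seen, were Arg2 (-1.32), Sp110 (-1.94) and Gm16513 (-2.65).

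The ligase that Spop-type adaptors serve was examined through 25 genes of its core and its control by Nedd8, the ubiquitin-like protein that activates cullins. All 24 that could be tested passed, beside 82.1% of all genes: 16 fell and 8 rose, with a median log2 fold change of -0.48. Cul3, the scaffold to which POZ domains bind, fell from 267 ± 88.6 to 21.3 ± 25.5 CPM (a log2 fold change of -3.65 with an SE of 0.228, edgeR adjusted p 9.3e-32), with all 80 SR1848 embryos below the DMSO median. Nedd8 fell from 127 ± 34.6 to 26.8 ± 14.6 CPM (-2.24, edgeR adjusted p 1.5e-35). Cops6, a subunit of the COP9 signalosome that removes Nedd8, fell by 2.30 on the log2 scale (edgeR adjusted p 1.3e-40). Rnf7, a RING protein of cullin ligases, had a log2 fold change of -2.70 and fell (edgeR adjusted p 5.8e-34), and Rbx1, the RING partner of Cul3, named after its values were seen, fell by 1.40 (edgeR adjusted p 7.3e-29). Dcun1d1, which promotes attachment of Nedd8 to cullins, rose from 328 ± 109 to 570 ± 290 CPM (0.80, edgeR adjusted p 2.3e-10) and stood at -0.23 on the oocyte-transcript scale. On that scale 1 gene of the core was higher and 19 lower, beside 2011 higher and 7703 lower of all 13192 genes tested.

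Other POZ-domain adaptors of Cul3 were split. Of 52 listed and 47 tested, 17 rose and 20 fell, beside 45.6% and 36.5% of all genes, with a median log2 fold change of -0.05. On the oocyte-transcript scale 1 rose and 38 fell, beside 2011 higher and 7703 lower of all 13192 genes tested. Klhl8 rose from 285 ± 123 to 1645 ± 1602 CPM (log2 fold change 2.53, edgeR adjusted p 3.3e-25). Klhl7 fell by 2.81 on the log2 scale (edgeR adjusted p 2.9e-18) and Kbtbd4 fell by 1.56 (edgeR adjusted p 2e-18). Spop and Spopl, which have the domain pair of Tdpoz and were named after their values were seen, rose by 0.65 (edgeR adjusted p 1.8e-09) and 0.55 (edgeR adjusted p 3.4e-05), from 85.9 ± 24.5 to 134 ± 51.9 CPM and from 23 ± 8.18 to 33.7 ± 16.9 CPM. Both stood lower on the oocyte-transcript scale, at -0.38 and -0.55.

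Of 9 other genes listed for a TRAF domain or name, 8 were tested, of which 3 rose and 2 fell, beside 45.6% and 36.5% of all genes, with a median of 0.24, the same as over all genes. Traf4 rose from 43.8 ± 23 to 161 ± 135 CPM (log2 fold change 1.87, edgeR adjusted p 6e-17), and Traf7, which carries the family name but no TRAF domain, rose by 0.46 (adjusted p 8.8e-07) but stood at -0.53 on the oocyte-transcript scale. Usp7, a deubiquitinase and the most abundant of the list, fell from 325 ± 65.7 to 228 ± 70.2 CPM (-0.51, edgeR adjusted p 2.7e-10), and Traf2 fell by 0.61 (edgeR adjusted p 0.00044). On the oocyte-transcript scale 1 of the 8 was higher and 7 were lower, beside 2011 higher and 7703 lower of all 13192 genes tested.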

How the data were processed

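The submitters' processing notes name kallisto 0.46.1 with bcl2fastq and Trim Galore 0.6.2, then DESeq2 1.32.0 with R 3.5.1, and the builds mm10 and hg19 without a role. The authors deposited kallisto estimated counts for 119358 transcripts, a log2 table of normalized values that was not used, and their own DESeq2 comparison of transcripts, which holds log2 fold changes, adjusted p-values, base means (a normalized signal) and a test score. Only its log2 fold changes and p-values are quoted. The gene names came from that deposited table (117194 transcripts) or from GENCODE M21 (364). Entries without a gene (1795, 0.811% of counts) and 5 others (0.0258%) were left out. Estimated counts were summed per gene and rounded. Reads carry no molecular identifiers, so floors cover counting error only. The design text lists more control embryos than the 50 used, and the others were not analysed here.

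Genes kept by filterByExpr were tested with edgeR 4.0.16 in R 4.3.3 (TMM, robust glmQLFit, glmQLFTest, two-sided, Benjamini-Hochberg over 13192 genes, threshold 0.05). The procedure was run on simulated data in which few genes changed, evenly up and down. That setting does not cover a contrast as broad as this one. CPM values use TMM-scaled library sizes. All 4 Tdpoz genes passed the filter. The biological coefficient of variation was 0.771, and no libraries of a group agreed within sampling noise (lowest chi-square per gene 20.8). Relations used log2(CPM + 1) and 100000 two-sided permutations, whose smallest p is 1e-05. Sequences were aligned with mafft 7.526 and searched with blastn 2.17.0. The design had set a protein match for unnamed copies, and a coding-sequence match was used in its place. Named genes were the 4 genes, relatives with a mean of at least 1 CPM, the 4 smallest p and the most abundant gene of each list, the 8 most like genes, and Nr5a2. Members and lists (2-cell, Cul3 ligase core, POZ adaptors, TRAF-domain, oocyte, cumulus, sperm and blood genes) were chosen with earlier results of these data known. Alternatives were RLE, total-count and oocyte-transcript scaling (also without Zbed3 and Spin1), no filter, DESeq2 1.42.0, embryo number as a block, a pseudocount of 0.1 and leaving out embryos. The oocyte list was used for scaling and for relations.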

Additional observations from a re-analysis of the deposited data

How the results depend on the processing

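The direction of Tdpoz1, Tdpoz2 and Tdpoz3 held under all 8 alternatives, with the sum at -1.40 and Tdpoz2 at -6.76 on the oocyte-transcript scale, where Tdpoz4 was reversed at -0.42. The oocyte-transcript scale moved the counts over all genes to 2011 higher and 7703 lower (20.7% of calls higher, against 55.5%), the lower relatives to 9, the unnamed copies to 0 higher and 8 lower, the Cul3 core to 1 higher, the POZ adaptors to 1 higher and 38 lower, and the TRAF-domain genes to 1 higher and 7 lower. It also reversed Gm5542 (-0.66), Gm9121 (-0.26), Gm9124 (-0.30), Dcun1d1 (-0.23), Traf7 (-0.53), Tmem92 (-0.45), Spop (-0.38), Spopl (-0.55), Gm5157 (-0.63), Gm7102 (-0.45), Gm5117 (-0.69) and Orc3 (-0.61), and the same scale without Zbed3 and Spin1, which carry 86.6% of the rise of the oocyte sum, reversed none of them and left 5131 genes higher and 5188 lower (49.7% of calls higher). Total-count scaling reversed Gm5117 (-0.034) and Orc3 (-0.0032). Without the filter on low counts, 10189 genes were higher and 7440 lower, because more genes were tested, and 3 unnamed copies were higher. Embryo numbers do not pair the groups: of 50 shared numbers, 8 pairs correlated above 0.1 (-0.276 to 0.175), and 1 SR1848 embryo correlated best with its own number. With the number as a block, 5431 genes were higher and 5032 lower, Tdpoz2 stood at -6.62, Tdpoz8 at 0.16 and Gm5541 at 0.021, both reversed. That fit kept only embryos with 1 of the 50 shared numbers, so it differs from the main fit in its SR1848 embryos as well. Among relations, Tdpoz2 with Tdpoz3 in SR1848 embryos no longer passed with total counts (rho 0.26) or without the 2 farthest embryos (0.22). Tdpoz1 with Tdpoz4 in SR1848 embryos turned to -0.0086 without 1 shallow embryo and -0.033 without the 2 farthest. Tdpoz2 with the 2-cell score in SR1848 embryos turned to -0.008 with total counts, and Tdpoz4 with that score in DMSO embryos no longer passed with a pseudocount of 0.1 (0.28). The remaining 114 of 120 relation values and 99 of 112 counts kept their side. The scale without Zbed3 and Spin1, the unnamed copies, the single-gene relations and the sums with copies were added after seeing the data. Depth limits single embryos to about 3 counts, or 0.35 to 1.27 CPM.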

Other observations

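Genes beside the Tdpoz cluster, chosen after the values were seen, were counted in the same edgeR quasi-likelihood fit with Benjamini-Hochberg adjustment. Of 25 tested protein-coding genes within 1 Mb of the cluster that are no copies, 6 rose with SR1848 and 14 fell, beside 45.6% and 36.5% of all genes tested. None of the 25 lies before the cluster. Tchh, the one tested gene inside the cluster, stood at 19.6 ± 14.5 CPM with DMSO and 18 ± 17.9 with SR1848 and did not pass (log2 fold change -0.12, edgeR adjusted p 0.69). Them4, a thioesterase gene and the first tested gene beyond the cluster, fell from 95.9 ± 41.9 to 2.96 ± 3.46 CPM (log2 fold change -5.00, edgeR adjusted p 5.2e-40). The proteasome gene Psmb4 fell from 158 ± 53.7 to 17.4 ± 12.7 CPM (-3.18, edgeR adjusted p 4.4e-41) and Gabpb2, a subunit of the GA-binding protein, fell from 65.6 ± 28 to 5.27 ± 4.24 CPM (-3.63, edgeR adjusted p 4.3e-41). Rfx5 rose from 13.5 ± 8.29 to 55.5 ± 62.5 CPM (2.04, edgeR adjusted p 2.5e-13). In the stretch that follows the cluster, some genes thus stood far lower and others higher with SR1848, in a contrast where 82.1% of all genes tested passed.

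RefSeq promoter sequences (GRCm38.p6) were at hand for 2 of the 4 genes, Tdpoz1 and Tdpoz4. In neither were the letters CAAGGNCA, the extended half-site that Nr5a2 is known to bind, found on either strand of the 250 bases before the start. They occur in 5.53% of the 32851 promoter windows of this length. The shorter form AAGGNCA, which is contained in the longer one, was not found there either and occurs in 17.5% of windows. The annotated transcript of Tdpoz4 begins at its first coding base, so its window is the sequence before the start codon and need not be its promoter. The absence says only that the letters are not in these windows.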
